A study of Mus musculus with 7 samples.

Results

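Among 1926 differentially methylated regions (DMRs) between Scnn1b-Tg and wild-type (WT) airway macrophages (AMs), 44 were assigned to an olfactory or vomeronasal receptor gene. They were taken as every DMR whose nearest gene, as named in the deposited list, has a symbol starting with Olfr, Vmn1r or Vmn2r and a number. No methylation value was used to choose them within the list, but the list itself was selected by the authors on methylation difference. Of the 44, 22 carried an Olfr symbol, 14 a Vmn1r symbol and 8 a Vmn2r symbol. They named 42 genes, out of 1735 receptor gene symbols of these families in the GENCODE annotation of the same genome build, because Olfr1507 was named for 3 regions.

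AMs were sorted from dispase-digested lungs as CD45+ Siglec-F+ CD11c+ cells, and their DNA was tagmented, treated with bisulfite and sequenced over the whole genome (tWGBS), in 3 samples of Scnn1b-Tg mice and 4 of WT littermates. The mice were 6 weeks old, female and on a C57BL/6 background. Scnn1b-Tg mice carry the beta subunit of the epithelial sodium channel under the promoter of the club cell secretory protein, which is active in epithelial cells of the airways. Mucus obstructs their lungs. The transgene is therefore directed at the cells that surround AMs and not at AMs. The question was how methylation of AMs differs in that airway. A DMR is called hypomethylated where the level was lower in Scnn1b-Tg AMs and hypermethylated where it was higher.

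A methylation level is the fraction of methylated cytosines at CpG sites, from 0 to 1. Each level given here is the mean that the authors deposited for a genotype, over the CpGs of the region and the samples of that genotype. The table leaves the genotype of its level columns unnamed, and every direction given here rests on matching the number of regions in each direction, and the direction at loci the study names, to its description. The spread between samples and the read depth of each region are therefore unknown, no SD or test belongs to a level, and differences among DMRs are given as descriptions. The list holds no expression values, so neither the AM identity of the cells nor the silence of the receptor genes could be checked in it.

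Olfactory receptors are G protein-coupled receptors of the olfactory epithelium, where each sensory neuron uses a single receptor gene and keeps the others shut in compacted chromatin. Vomeronasal receptors of the V1R type (Vmn1r) and the V2R type (Vmn2r) detect pheromones and related cues in the vomeronasal organ. The genes of each family arose by tandem duplication and stand in long clusters, rich in interspersed repeats and poor in CpGs. They are not characteristic genes of macrophages, and CpG methylation is usually high over silent genes of this kind.

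The sequences below show what these regions are made of. They are given 5′ to 3′ on the plus strand of GRCm38 (the assembly behind mm10), read from RefSeq, with every CpG in capitals. Each runs to the G of the last CpG. The first set holds the receptor DMR with the greatest loss and both DMRs with the greatest gains.
Vmn2r89, chr14:51455373-51455468, 5 CpGs, hypomethylated: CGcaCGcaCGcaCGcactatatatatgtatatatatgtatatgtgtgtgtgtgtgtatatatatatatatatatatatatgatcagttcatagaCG
Vmn2r50, chr7:10035334-10035576, 7 reference CpGs, of which 4 were counted in the list, hypermethylated: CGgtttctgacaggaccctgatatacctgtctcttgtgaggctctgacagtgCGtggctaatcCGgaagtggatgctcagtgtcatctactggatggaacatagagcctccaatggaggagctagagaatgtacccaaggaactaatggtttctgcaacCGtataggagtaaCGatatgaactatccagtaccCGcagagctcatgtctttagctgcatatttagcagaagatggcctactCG
Olfr1507, chr14:53066266-53066327, 4 CpGs, hypermethylated: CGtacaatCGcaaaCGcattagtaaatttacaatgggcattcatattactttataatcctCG

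The second set was chosen after the values were seen, to show a region of unique sequence inside another gene (Olfr56) and regions whose sequence recurs in other DMRs (Olfr134, Olfr845, Olfr479, Vmn1r77 and Vmn2r87).
Olfr56, chr11:49088535-49088628, 8 CpGs, hypomethylated: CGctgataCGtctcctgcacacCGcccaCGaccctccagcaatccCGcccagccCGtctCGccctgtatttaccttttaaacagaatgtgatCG
Olfr134, chr17:38165552-38165714, 4 CpGs, hypomethylated: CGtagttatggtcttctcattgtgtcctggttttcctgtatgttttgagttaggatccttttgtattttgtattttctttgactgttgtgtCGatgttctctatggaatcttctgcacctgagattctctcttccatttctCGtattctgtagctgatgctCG
Olfr845, chr9:19325416-19325631, 4 CpGs, hypomethylated: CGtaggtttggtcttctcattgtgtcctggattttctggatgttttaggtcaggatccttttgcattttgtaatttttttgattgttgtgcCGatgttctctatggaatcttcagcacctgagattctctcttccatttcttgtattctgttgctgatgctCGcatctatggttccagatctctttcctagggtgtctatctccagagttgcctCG
Olfr479, chr7:108043791-108043862, 4 CpGs, hypomethylated: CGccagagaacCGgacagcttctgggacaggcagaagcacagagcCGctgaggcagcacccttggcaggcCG
Vmn1r77, chr7:12063404-12063515, 4 CpGs, hypomethylated: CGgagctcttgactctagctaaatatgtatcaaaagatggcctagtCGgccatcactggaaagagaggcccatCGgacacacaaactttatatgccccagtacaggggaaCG
Vmn2r87, chr10:130555560-130555672, 5 reference CpGs, of which 4 were counted in the list, hypomethylated: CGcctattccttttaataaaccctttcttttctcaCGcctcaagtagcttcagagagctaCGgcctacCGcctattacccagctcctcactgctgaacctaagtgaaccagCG

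Receptor DMRs were mostly hypomethylated in Scnn1b-Tg AMs. The level was lower in 37 of 44 (84.1%), against a background of 72.9% over all 1926 DMRs. The median level was 0.813 in WT and 0.603 in Scnn1b-Tg AMs. The same medians over the 1882 other DMRs were 0.764 and 0.590. The median difference, Scnn1b-Tg minus WT, was -0.238 in receptor DMRs and -0.218 in other DMRs. These values lie near each other, and the share of losses moved with what the regions were compared with. Among other DMRs that the list calls distal intergenic, 77.2% of 1080 were hypomethylated, and among other DMRs that lie to at least 90% in repeats, 83.7% of 658. Whether receptor DMRs differ from other DMRs in direction was not tested.

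**Figure D1:**
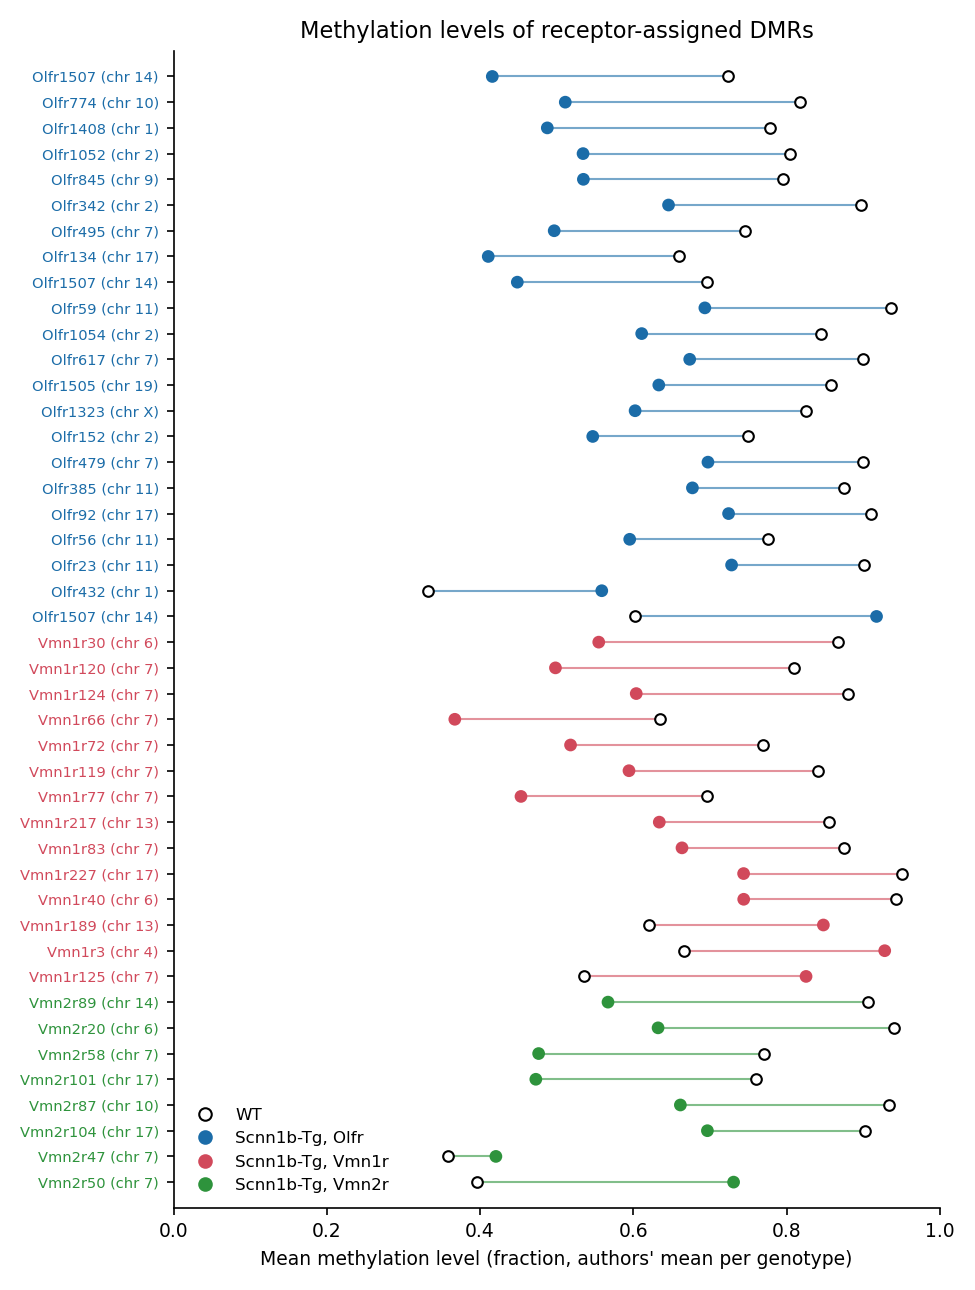
Mean methylation level (fraction) of each receptor DMR in WT AMs (open circles) and Scnn1b-Tg AMs (filled circles), 1 line per region, grouped and coloured by family and ordered by difference. The 37 hypomethylated regions run from high WT levels (0.635 to 0.950) to lower Scnn1b-Tg levels (0.367 to 0.744), and the 7 hypermethylated regions start from WT levels of 0.332 to 0.666.

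In hypomethylated receptor DMRs the WT level lay between 0.635 and 0.950, and the Scnn1b-Tg level between 0.367 and 0.744. A WT level of at least 0.8 was found in 24 of 44 receptor DMRs (54.5%) and in 808 of the other DMRs (42.9%), and every one of these 24 and of these 808 was hypomethylated. Such a level leaves less room for a gain than the median absolute difference of all listed DMRs (0.233), and the regions were chosen by their difference. How far the upper end of the scale and this choice set the split was not tested. Below that level, 13 of 20 receptor DMRs (65.0%) and 559 of 1074 other DMRs (52.0%) were. The smallest loss among the 37 was a difference of -0.173, at Olfr23. Since the authors listed regions by the size of their difference, such a minimum is partly set by the list.

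**Figure D2:**
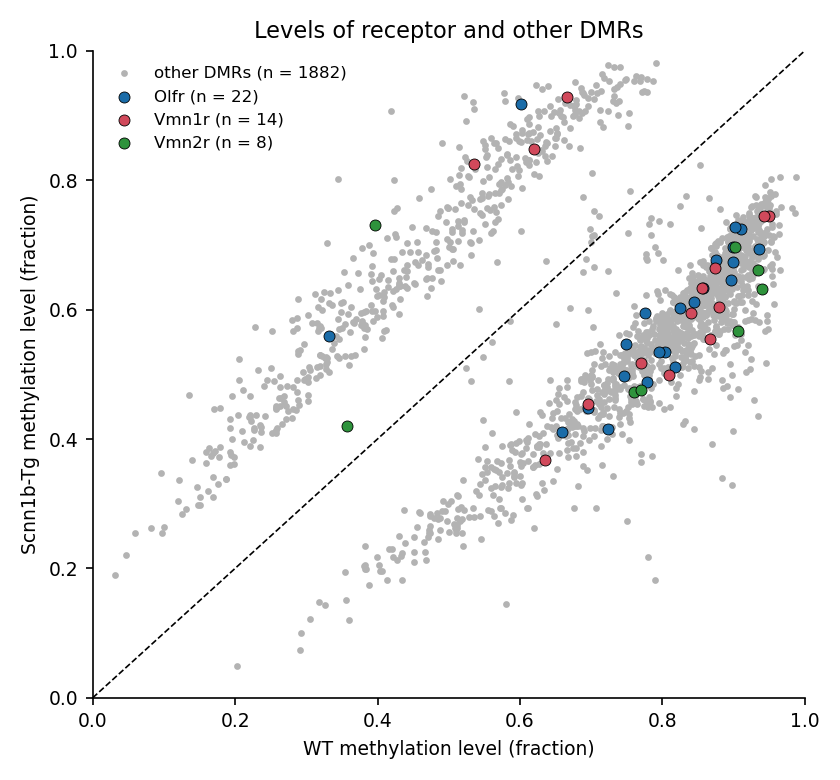
WT level against Scnn1b-Tg level (fractions) of the 22 Olfr, 14 Vmn1r and 8 Vmn2r DMRs, over the 1882 other DMRs in grey, with a dashed line at equal levels. Receptor DMRs lie in both bands of the other DMRs, 37 below the line and 7 above it, and Vmn2r47 (0.358 and 0.421) stands close to the line.

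Among Olfr DMRs, 20 of 22 were hypomethylated. The greatest losses were at Olfr1507, from 0.724 (WT) to 0.416 (Scnn1b-Tg), at Olfr774, from 0.817 to 0.511, and at Olfr1408, from 0.778 to 0.488. Olfr342 had the highest number of CpGs of all receptor DMRs, 21 within 270 bp, and fell from 0.897 to 0.646. Its area statistic, which the authors' DMR caller sums over all CpGs of a DMR, was -120.6, the most negative of the 44. The DMR of Olfr617 followed with 15 CpGs and -77.9, and its level was 0.900 in WT and 0.674 in Scnn1b-Tg AMs. It lay in an intron of Olfr617, a gene of the class I olfactory receptors, which stand together on chromosome 7. The other Olfr losses ran from -0.173 (Olfr23) to -0.270 (Olfr1052). Both Olfr gains, at Olfr432 and at the third region of Olfr1507, are given further on.

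Among Vmn1r DMRs, 11 of 14 were hypomethylated. Vmn1r30 lost most, from 0.868 (WT) to 0.555 (Scnn1b-Tg), over 1061 bp that hold 4 CpGs in the list. On chromosome 7, a Vmn1r cluster of 27 genes over 1.20 Mb held 4 receptor DMRs. There the level fell from 0.841 to 0.594 at Vmn1r119, from 0.809 to 0.498 at Vmn1r120 and from 0.880 to 0.604 at Vmn1r124. At Vmn1r125, 35.5 kb from the DMR of Vmn1r124, it was higher instead, 0.825 in Scnn1b-Tg against 0.535 in WT AMs. So the cluster held losses and a gain a short way apart. Elsewhere on that chromosome the levels, WT first, were 0.696 and 0.453 at Vmn1r77, 0.874 and 0.664 at Vmn1r83, and 0.770 and 0.518 at Vmn1r72. High WT levels were seen at Vmn1r227 (0.950, with 0.744 in Scnn1b-Tg AMs), at Vmn1r40 (0.943 and 0.744) and at Vmn1r217 (0.856 and 0.634).

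Among Vmn2r DMRs, 6 of 8 were hypomethylated. Vmn2r89 had the greatest loss of all 44 receptor DMRs, from 0.907 (WT) to 0.567 (Scnn1b-Tg), a difference of -0.340. It lies in intron 2 of the gene, and its sequence, shown above, holds 4 of its 5 CpGs within its first 14 bases, followed by a stretch rich in TA and TG steps. Vmn2r20 fell from 0.940 to 0.632 with 9 CpGs in 63 bp, the greatest CpG density of the receptor DMRs at 14.3 per 100 bp. Vmn2r58 fell from 0.770 to 0.476, Vmn2r101 from 0.760 to 0.473 and Vmn2r87 from 0.934 to 0.661. Vmn2r104, with 12 CpGs, fell from 0.902 to 0.697.

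The 7 hypermethylated receptor DMRs (15.9%, against 27.1% over all DMRs) had a median WT level of 0.535. How far the upper end of the scale bears on that level was not tested either. Vmn2r50 gained most, from 0.396 (WT) to 0.731 (Scnn1b-Tg). The third region of Olfr1507 rose from 0.602 to 0.917. Vmn1r125 rose from 0.535 to 0.825, Vmn1r3 from 0.666 to 0.928 and Vmn1r189 from 0.620 to 0.848. Olfr432 rose from 0.332, the lowest WT level among receptor DMRs, to 0.559. Vmn2r47 was higher by 0.063, from 0.358 to 0.421, over a stretch of 2901 bp with 4 CpGs in the list. Vmn2r47 was the 1 receptor DMR with a difference under 0.1, against 37 in the whole list, and its area statistic of 1.29 was the smallest.

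The share of receptor DMRs close to a transcription start site (TSS) was near that of other DMRs. According to the deposited annotation, 5 of 44 (11.4%) were within 3 kb, against 10.9% of other DMRs, 5 were intronic, 2 lay just downstream of a gene, 0 were called exonic and 32 (72.7%) were distal intergenic, against 57.4% of other DMRs. Median distance from a TSS was 14.8 kb, against 47.7 kb for other DMRs, and the short spacing of receptor genes was not taken into account. By that annotation, the DMR closest to the TSS of its named gene was that of Vmn1r66, 0.943 kb away. Its level was 0.635 in WT and 0.367 in Scnn1b-Tg AMs. In the GENCODE annotation it overlaps a coding exon of that gene. The others within 3 kb were those of Olfr56, Vmn1r83, Olfr617 and Olfr432, and those of Vmn1r83 and Olfr432 overlap untranslated exon sequence of their genes.

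The symbol of the list did not always describe the surroundings of a region. In the GENCODE annotation the DMR of Vmn2r87 lies in Gm31793, that of Vmn2r47 in Gm20438 and that of Vmn1r217 in the pseudogene Vmn1r-ps128. The DMR of Olfr56 (0.776 in WT and 0.595 in Scnn1b-Tg AMs) lies in a transcript of Olfr56 that spans a neighbour, and also in an intron of Ifi47, 0.271 kb from an annotated start of that gene, and it touches a processed pseudogene, Gm12188. Ifi47 encodes an interferon gamma-inducible GTPase, and the next gene to the left, Tgtp2, encodes another. This region held no masked repeat, 8 CpGs in 93 bp and no second copy of any of its windows, unlike most receptor DMRs. The 3 regions given to Olfr1507 lie 302, 375 and 571 kb from it, between V segments of the T cell receptor alpha locus (Trav6d-5 and Trav10d beside the first). Their levels, WT first, were 0.696 and 0.449, 0.724 and 0.416, and 0.602 and 0.917. The DMR of Vmn1r72 lies between Zscan4-ps2 and Zscan4-ps3. Without the T cell receptor locus, 35 of 41 receptor DMRs were hypomethylated (85.4%).

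By the GENCODE annotation, 32 of the 44 receptor DMRs had a receptor gene as the nearest neighbour on both sides, 8 had one on 1 side and these 4 on neither. Another 2 measures describe how the regions sit in the clusters. First, 26 receptor DMRs had another within 1 Mb, forming 16 neighbouring pairs, and 11 of the pairs (68.8%) had the same direction, against 672 of 1015 pairs formed in the same way by other DMRs (66.2%). The share within receptor loci was thus near that elsewhere. The 5 mixed pairs were Vmn1r124 and Vmn1r125, Vmn2r50 and Vmn1r66, Olfr1408 and Olfr432, Vmn1r189 and Vmn1r217, and 1 pair of Olfr1507 regions. Matched losses were seen at Olfr1052 (0.804 in WT and 0.534 in Scnn1b-Tg AMs) and Olfr1054 (0.844 and 0.611), 37.7 kb apart in the cluster of 287 genes on chromosome 2. On chromosome 11, Olfr385 (0.875 and 0.677), Olfr23 (0.901 and 0.728) and Olfr59 (0.936 and 0.693) all fell in a cluster of 44 genes. On chromosome 7, Olfr479 fell from 0.899 to 0.697 and Olfr495 from 0.746 to 0.497.

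Second, receptor genes at most 200 kb apart were joined into clusters of at least 5 genes. This gave 57 clusters with 1632 genes over 45.3 Mb, 1.72% of the genome and 1.19% of its CpGs. They held 33 DMRs (1.71% of all), 31 with a receptor symbol and 2 with another, Zfp735 (0.888 in WT and 0.621 in Scnn1b-Tg AMs) and 4931431F19Rik (0.828 and 0.607). Of the 33, 29 were hypomethylated. DMRs were nearly as dense there as elsewhere per length, at 0.729 per Mb inside and 0.731 outside. Counted per CpG, they were denser inside, with 1.30 against 0.897 per 10000 CpGs, since the clusters hold fewer CpGs (0.561 per 100 bp against 0.815). The DMRs were spread thinly, as 19 of the 57 clusters held a receptor DMR and 8 held several. These densities carry no replicate error, and the number of CpGs that could be measured inside and outside is unknown.

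Receptor DMRs were small CpG-dense spots in CpG-poor surroundings. Their median CpG density was 3.72 per 100 bp, against 3.12 in other DMRs. A window of the region and 2500 bp on each side held a median of 0.749 CpGs per 100 bp, against 0.984 for other DMRs. By its listed CpGs, a receptor DMR was denser than this window in 40 of 44 cases. The median ratio was 3.88, against 3.13 for other DMRs, 3.44 for distal intergenic ones and 3.94 for those at least 90% masked. The window counts all reference CpGs, including those of the region. In the exceptions, Olfr152, Vmn1r30, Vmn1r120 and Vmn2r47, the list counts fewer CpGs than the reference holds. Median length was 177.5 bp against 191 bp, and regions with 4 CpGs made up 43.2% of receptor DMRs and 42.9% of the others. DMR calling needs several CpGs close together, in both sets alike. By family, median density was 3.96 per 100 bp for Olfr, 3.83 for Vmn1r and 3.23 for Vmn2r DMRs, with overlapping ranges.

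The CpG-dense spots were largely repeats. The median share of bases soft-masked as repeats in the reference was 98.5% in receptor DMRs and 37.2% in other DMRs. Of the 44 receptor DMRs, 28 (63.6%) were masked over at least 90% of their length, against 35.0% of other DMRs. This share was 46.1% in other distal intergenic DMRs. In 19 DMRs of other tandem gene families, such as Mup and Serpinb, it was 57.9%. Of the 28 receptor DMRs masked so, 25 were hypomethylated (89.3%), and of the other 16, 12 (75.0%). Among other DMRs the same split gave 83.7% and 66.7%. Median CpG density was 4.14 per 100 bp in receptor DMRs masked over at least 90% and 2.60 in the rest, and in other DMRs 3.96 and 2.84. Direction and density thus moved with repeat content in both sets, though in receptor DMRs the split in direction rests on 3 and 4 gains. The part of repeat content in the values of receptor DMRs was not tested.

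**Figure D3:**
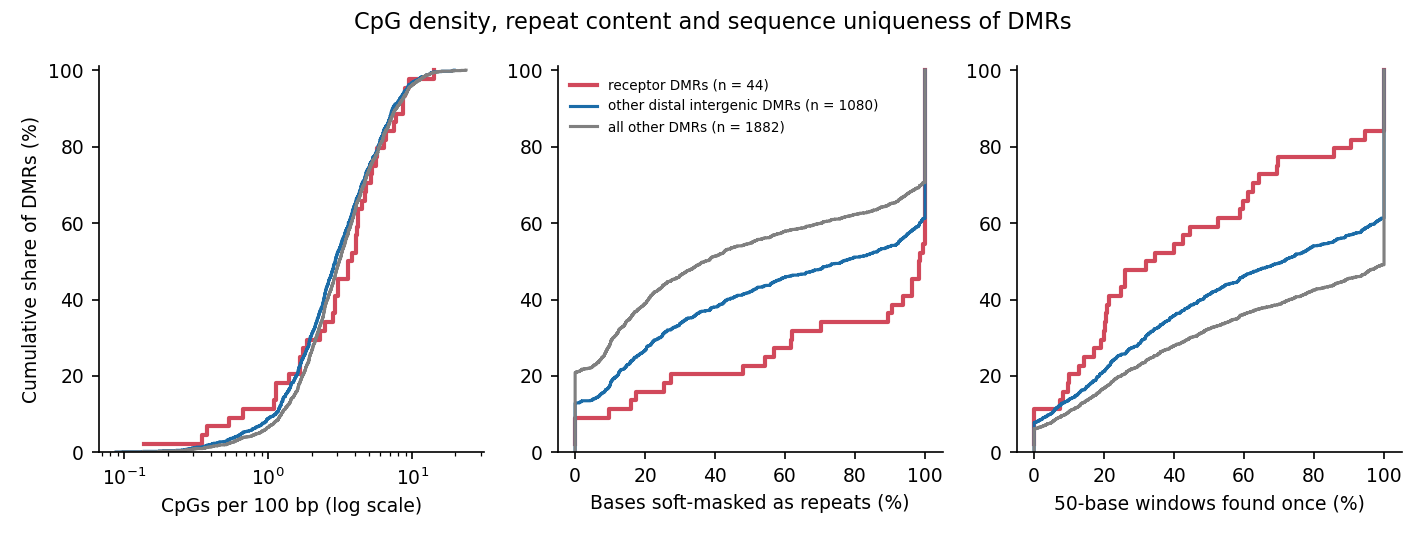
Cumulative share of DMRs (percent, vertical) against CpG density (CpGs per 100 bp, log scale), share of bases soft-masked as repeats (percent) and share of 50-base windows found once in the genome (percent), for 44 receptor DMRs, 1080 other distal intergenic DMRs and all 1882 other DMRs. The lines nearly coincide for density (medians 3.72, 2.92 and 3.12) and stand apart for repeats (98.5%, 76.5% and 37.2%) and unique windows (33.3%, 71.3% and 100%).

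Repeats make reads harder to place. A 50-base window was laid around every base of a region, so that the outer windows reach past its ends. Each window was counted in the reference genome on both strands. The median share of windows found once was 33.3% in receptor DMRs and 100% in other DMRs. With 100-base windows it was 80.2% and 100%. With 50-base windows after conversion of every C to T it was 14.6% and 88.0%. Bisulfite leaves methylated cytosines unconverted, so the last shares describe a fully converted sequence. The reads of the study were paired-end and longer than these windows, and longer converted windows were not counted. How far these shares hold for such reads is not known. With unconverted 50-base windows the share found once was under 50% in 26 of 44 (59.1%), against 32.3% of other DMRs. Regions in which every window was found once numbered 7 (15.9%, against 50.9% of other DMRs), those of Olfr56, Olfr432, Olfr1052, Olfr1323, Vmn1r66, Vmn2r89 and Vmn2r101. All of these but Olfr432 were hypomethylated, with differences of -0.180 to -0.340. After conversion Vmn2r89, the one with -0.340, kept 28.4% of windows found once and the other 6 kept 100%, and without it the differences ran from -0.180 to -0.287. At Vmn2r50, the largest gain, 12.8% of unconverted windows were found once, at Vmn1r125 69.5% and at Vmn1r30 7.45%. After conversion these shares were 0%, 0% and 3.49%. The share of windows found once was under 50% in 78.6% of receptor DMRs masked over at least 90% and in 76.7% of other DMRs so masked. In the 19 DMRs of other tandem gene families it was under 50% in 57.9%. Low window uniqueness was thus not particular to receptor symbols, and its part in the measured differences was not tested.

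The repeats recur in other DMRs. By sequence comparison (BLAST, at least 80% identity over at least 80% of the region), 27 of 44 receptor DMRs (61.4%) matched another listed DMR, against 579 of 1882 other DMRs (30.8%). Of the 27, 24 were hypomethylated, and of the 17 without a match, 13. The matches of receptor DMRs came to 181 other DMRs, of which 158 were hypomethylated (87.3%). The region of Vmn1r77, with a difference of -0.243, matched 48 DMRs, 44 of them hypomethylated. The median difference was -0.247 over all 48 matches and -0.237 over all hypomethylated other DMRs, so its nearness says little about copies. The region of Olfr479 matched 19 DMRs, all hypomethylated, and that of Olfr59 matched 12, all hypomethylated. Vmn2r58 matched 31, of which 23 were hypomethylated, and Vmn2r20 matched 17, of which 10 were. Matched regions share sequence and are not independent measurements, and whether reads of 1 region were placed in another is not known.

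**Figure D4:**
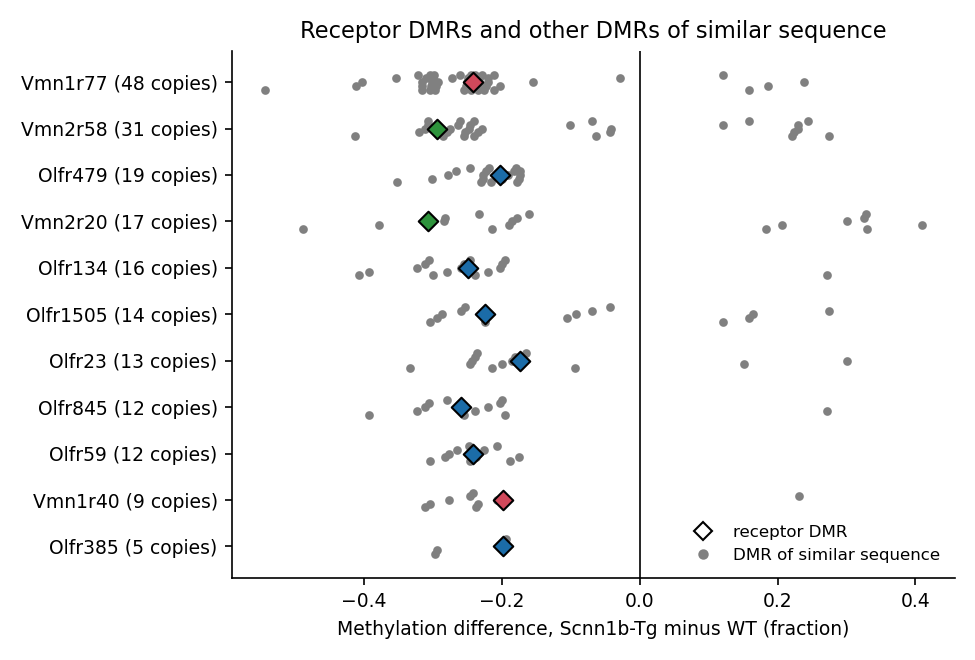
Methylation difference, Scnn1b-Tg minus WT (fraction), of the 11 receptor DMRs that matched at least 5 other DMRs (diamonds, coloured by family) and of the matching DMRs (grey points). All 11 receptor DMRs lie below 0, and so do the 19 matches of Olfr479 and the 12 of Olfr59, whereas 10 of 17 matches of Vmn2r20 do.

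Several receptor DMRs were copies of each other. The regions of Olfr134 and Olfr845, printed above, align over the whole of the former with 90.2% identity. Both also matched stretches within the longer DMRs of Olfr152 (94.4% and 92.6%) and Vmn1r120 (93.8% and 93.5%), and that of Vmn1r40 matched Vmn1r120 (89.2%). The 5 regions are on chromosomes 2, 6, 7, 9 and 17, and all were hypomethylated. The list counts 7 of 11 reference CpGs over 1055 bp at Olfr152, and 8 of 29 over 2325 bp at Vmn1r120. Whether the counted CpGs lie in the matching stretches is not known. The level was 0.659 in WT and 0.411 in Scnn1b-Tg AMs at Olfr134, 0.795 and 0.535 at Olfr845, and 0.750 and 0.547 at Olfr152. Outside the receptor families, the closest matches of Vmn1r77, each with 96.4% identity, were DMRs of Efhc2 (0.841 in WT and 0.520 in Scnn1b-Tg AMs), Fut9 (0.785 and 0.374) and Tinag (0.885 and 0.588). The matching stretch of the Efhc2 DMR is printed here on the minus strand of GRCm38. The DMR itself is 141 bp long with 5 CpGs, over which its levels are means.
Efhc2, chrX:17192338-17192449, 4 CpGs: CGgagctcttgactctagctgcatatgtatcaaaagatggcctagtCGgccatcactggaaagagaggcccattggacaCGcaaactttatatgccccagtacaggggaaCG

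Near-identical sequence did not always go with the same direction. The region of Vmn2r87 (0.934 in WT and 0.661 in Scnn1b-Tg AMs) matched a DMR of Zfp458, a KRAB zinc finger gene, with 99.1% identity, and that DMR was hypermethylated (0.687 in WT and 0.905 in Scnn1b-Tg AMs). The hypermethylated region of Olfr1507 (0.602 and 0.917) had 98.4% identity with a stretch of a 4094-bp DMR of Zscan4d that fell from 0.731 to 0.514. The levels of a DMR are means over all its CpGs, which in Zfp458 are 7 over 154 bp, 5 of them in the matching stretch. The entry of Zscan4d counts 4 CpGs, and whether they are those of the matching stretch is not known. Vmn2r50, also hypermethylated, had 3 more distant matches (80.8% to 83.3% identity), with differences of -0.306 at Rps6ka3, -0.069 at Chordc1 and -0.029 at Limk1. The copies are printed on the minus strand, to be read against the Vmn2r87 and Olfr1507 sequences above, and they keep all CpGs of their partners.
Zfp458, chr13:67234367-67234479, 5 CpGs: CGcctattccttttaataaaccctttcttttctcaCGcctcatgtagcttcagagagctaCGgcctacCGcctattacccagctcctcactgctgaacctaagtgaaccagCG
Zscan4d, chr7:11175734-11175795, 4 CpGs: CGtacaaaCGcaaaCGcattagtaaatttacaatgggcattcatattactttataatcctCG

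Of 37 genes in 4 groups that work with the receptors, 2 had a DMR (5.41%). Of all 21911 protein-coding gene symbols 1300 had one (5.93%), and of the 1735 receptor gene symbols 42 did (2.42%). Neither the 13 genes of olfactory transduction and receptor trafficking (among them Gnal, the G protein subunit of olfactory neurons, and Adcy3, their adenylyl cyclase) nor the 5 of vomeronasal transduction (among them Trpc2, its channel) had any. The 10 heterochromatin genes known from receptor clusters, such as Lbr and Cbx5, had 0 as well. Groups this small could hold none at the share of all genes. Both DMRs carried, in the list, the symbol of a gene of receptor choice in olfactory neurons, and their surroundings were not checked. A distal DMR 30.9 kb from the TSS of Ebf2, a transcription factor, fell from 0.704 (WT) to 0.516 (Scnn1b-Tg). A DMR 6.81 kb from that of Atf5, a stress-response factor that also acts outside neurons, rose from 0.351 to 0.571. In 19 DMRs of other tandem gene families, such as Mup and Serpinb, 15 were hypomethylated (78.9%).

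Short motifs were searched on both strands of every DMR. TAATTA, bound by LHX2 and other homeodomain factors, was in 2 receptor DMRs (4.55%, against 5.31% of other DMRs). The palindromic consensus motif of EBF factors was in 1 (2.27%, against 0.691%). GAGGAA, a core of PU.1 and other ETS sites, was in 6 (13.6%, against 21.0%), and CANNTG, the E-box, in 25 (56.8%, against 60.1%). The ends of some motifs can overlap those of others, and a match does not show binding.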

How the data were processed

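According to the study's methods, the authors trimmed reads with Trimmomatic 0.36, aligned them to mm10 with BWA 0.7.8, marked duplicates with Picard, called CpG methylation with MethylDackel, smoothed each sample with bsmooth of bsseq and called DMRs with DSS, with minimum values for CpGs, length and difference (0.1) and an adjusted p-value. Smoothing ties neighbouring CpGs, and reads of repeats may be placed in the wrong copy.

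The deposited levels are fractions from 0 to 1, averaged by the authors over the samples of a genotype, and the deposited area statistic is a score from DSS. Neither level column is tied to a genotype in the table. Column 1 of the pair was read as Scnn1b-Tg, since it is the lower one in 1404 regions, the number the study describes as reduced in Scnn1b-Tg AMs, and at Igf1, Tank, Zfp704, Sec14l1 and Ifngr2, which the study describes so too. There are 0 columns of other samples. No value per sample, depth or interval could be derived, so no test over samples was run.

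All 1926 regions start and end on a CpG of GRCm38, and 1707 hold as many reference CpGs as listed (34 of 44 receptor DMRs, the other 10 holding more). Repeat shares are the soft-masked bases of the RefSeq assembly GRCm38, and neighbouring genes are from GENCODE. The count of windows was checked on simulated sequence. Copies were found with BLAST 2.17.0 (E at most 1e-06), and scripts ran in Python 3.11.15 with pandas 2.3.3 and numpy 2.4.6.

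The members, gene lists and comparisons were chosen with earlier results of these data known. Values are given for the 10 receptor DMRs with the largest absolute difference, those higher in Scnn1b-Tg AMs, within 3 kb of a TSS, of genes with several DMRs, with a difference under 0.1, of Vmn1r and Vmn2r genes, or within 1 Mb of another. Other named regions were chosen after their values were seen. Alternatives were a minimum of 6 CpGs, a minimum difference of 0.1, a distance limit of 50 kb and a receptor gene on both sides. Further ones were at least 50% of windows found once, the sign of the area statistic and CpGs counted on the reference. The rest were other comparison sets, other window definitions and a cluster gap of 500 kb. Of the sequences chosen to be shown, 1 is not reported here.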

Additional observations from a re-analysis of the deposited data

How the results depend on the processing

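Restricting receptor DMRs to the 18 with at least 6 CpGs moved the median WT level from 0.813 to 0.875, the median Scnn1b-Tg level to 0.669 and the median CpG density to 4.96 per 100 bp. Restricting them to those with at least 50% of their windows found once, a choice made after seeing the data, moved the density to 2.76 per 100 bp. With 100-base windows the median share found once was 80.2%, and with 50-base windows after C-to-T conversion of the sequence 14.6%. Against other distal intergenic DMRs the comparison values were 77.2% hypomethylated, medians of 0.802 in WT and 0.607 in Scnn1b-Tg AMs, -0.226 for the difference and 2.92 CpGs per 100 bp. Against other DMRs masked over at least 90%, also chosen after seeing the data, they were 83.7%, 0.859, 0.635, -0.235 and 3.96. Receptor DMRs thus exceeded all other DMRs in median WT level and CpG density but lay below those masked over at least 90%, and their Scnn1b-Tg median (0.603) exceeded that of all other DMRs (0.590) but lay below both of these sets. The cluster gap of 500 kb, chosen likewise, gave 0.754 DMRs per Mb inside and 0.731 outside, in place of 0.729 and 0.731, so that order turned too. The sign of the methylation difference was kept in all settings, and 28 of the 44 recomputed values stayed within a 95% interval over regions (exact binomial for shares and cluster densities, order statistics for medians), which treats regions as independent although many are copies of each other. Some settings could hardly move a value. The area statistic has the sign of the difference in every receptor DMR, and a minimum difference of 0.1 drops 1 region. The limit of 50 kb cuts the distance itself. The count of 28 is thus no measure of robustness. No paired analysis was possible because the level columns are means over the samples of a genotype, and for the same reason no sample could be left out. The depth per region is unknown.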
